A study of Homo sapiens with 4 samples.

Results

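The human IFIT genes described here are IFIT1, IFIT2, IFIT3 and IFIT5, which encode the interferon-induced proteins with tetratricopeptide repeats. They are 4 of the 20137 genes measured, with 7 of 81412 transcripts, and all 4 were among the 12136 genes that passed the filter on low values. The family was chosen by gene name after its difference between knockdown and control cells had been seen in these same libraries, so that difference is given below as a description, without a test. RNA was sequenced from MDA-MB-231, a cell line from a triple-negative breast cancer, grown in L-15 medium with serum. There were 2 libraries labelled as AURKA knockdown (titles shA) and 2 labelled as control (titles shC), which the series text calls mock-transfected and counts as biological replicates. The titles and the series text do not settle whether the control cells carried a short hairpin RNA. If they did not, effects of the hairpin itself and of lower AURKA cannot be told apart. AURKA encodes Aurora kinase A, a kinase of mitosis, and the series title asks which genes it regulates. Only 1 cell line was used, and the labels do not say whether the knockdown cells are a pool or a clone.

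Type I and type III interferons bind receptors at the cell surface, the Janus kinases then activate transcription factors that include STAT2 and IRF9, and these bind a short promoter sequence called the interferon-stimulated response element. IRF3, which is activated when a cell senses viral RNA or DNA, can bind the same element directly, and the IFIT genes are known to answer to both routes. The proteins have no catalytic activity: IFIT1 and IFIT5 bind the 5′ ends of foreign RNA, and some members bind the translation initiation factor eIF3.

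The response element is shown first, since it is what the IFIT promoters are known for. The core searched was GAAANNGAA, where N is any base, on both strands, so that a match on the other strand reads TTCNNTTTC, and matches may overlap. The windows run from 250 bases before to 50 bases after each start site, 5′ to 3′ on the plus strand, and capitals mark the matches. They are RefSeq sequences of GRCh38.p14: IFIT1 at chr10:89392373-89392672, the first and second IFIT3 starts at chr10:89327747-89328046 and chr10:89332279-89332578, IFIT5 at chr10:89414318-89414617, and the paralog IFIT1B at chr10:89377806-89378105.
IFIT1: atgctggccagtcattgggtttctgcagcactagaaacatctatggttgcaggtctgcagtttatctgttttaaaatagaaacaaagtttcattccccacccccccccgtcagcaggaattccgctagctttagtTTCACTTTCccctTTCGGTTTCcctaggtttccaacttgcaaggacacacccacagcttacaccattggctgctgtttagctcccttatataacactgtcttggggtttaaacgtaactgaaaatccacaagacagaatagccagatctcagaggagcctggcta
IFIT3, first start: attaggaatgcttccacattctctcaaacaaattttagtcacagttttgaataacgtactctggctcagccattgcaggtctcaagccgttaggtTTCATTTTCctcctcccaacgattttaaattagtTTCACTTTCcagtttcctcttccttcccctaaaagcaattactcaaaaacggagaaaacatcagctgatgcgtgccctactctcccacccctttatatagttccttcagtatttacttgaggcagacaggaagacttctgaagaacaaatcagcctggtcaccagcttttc
IFIT3, second start: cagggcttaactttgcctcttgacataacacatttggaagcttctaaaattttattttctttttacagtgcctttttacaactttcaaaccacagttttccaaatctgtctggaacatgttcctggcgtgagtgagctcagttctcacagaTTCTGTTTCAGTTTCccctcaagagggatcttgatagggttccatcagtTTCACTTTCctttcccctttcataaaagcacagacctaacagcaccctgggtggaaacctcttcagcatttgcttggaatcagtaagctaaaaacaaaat
IFIT5: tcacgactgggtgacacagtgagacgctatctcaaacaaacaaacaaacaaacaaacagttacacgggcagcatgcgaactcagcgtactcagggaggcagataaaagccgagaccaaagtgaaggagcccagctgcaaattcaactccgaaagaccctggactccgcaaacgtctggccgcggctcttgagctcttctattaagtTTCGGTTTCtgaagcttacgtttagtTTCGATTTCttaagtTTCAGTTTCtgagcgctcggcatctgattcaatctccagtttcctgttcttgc
IFIT1B: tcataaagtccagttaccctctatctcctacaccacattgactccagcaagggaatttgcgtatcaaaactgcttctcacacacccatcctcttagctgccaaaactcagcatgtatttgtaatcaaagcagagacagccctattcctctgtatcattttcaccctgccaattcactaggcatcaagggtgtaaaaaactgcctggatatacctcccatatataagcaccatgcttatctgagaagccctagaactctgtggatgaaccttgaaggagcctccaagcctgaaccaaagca
The IFIT1 window held 2 matches, which began 115 and 102 bases before the start site. The first IFIT3 start had 2 matches, 155 and 121 bases before it. The second IFIT3 start had 3 matches, at 99, 93 and 50 bases before it, of which the first pair overlap and print as 1 run of capitals. IFIT5 also had 3, at 44, 18 and 3 bases before its RefSeq start, and the last of these crosses that start. The GENCODE annotation starts IFIT1 77 bases before the RefSeq start and IFIT5 18 bases past it, so these distances hold for the RefSeq starts only. All 10 matches lie on the minus strand. IFIT1B had 0 matches. The IFIT2 promoter was not analysed here.

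Among all 35116 windows of this length in the RefSeq table, 8.11% held at least 1 match, 0.701% at least 2 and 0.0883% at least 3. The other interferon element, the gamma-activated site TTCNNNGAA, which reads the same on both strands, was matched in 0 of the 5 windows printed and in 7.66% of all windows. A match is a string of letters and not a measured binding site.

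**Figure D1:**
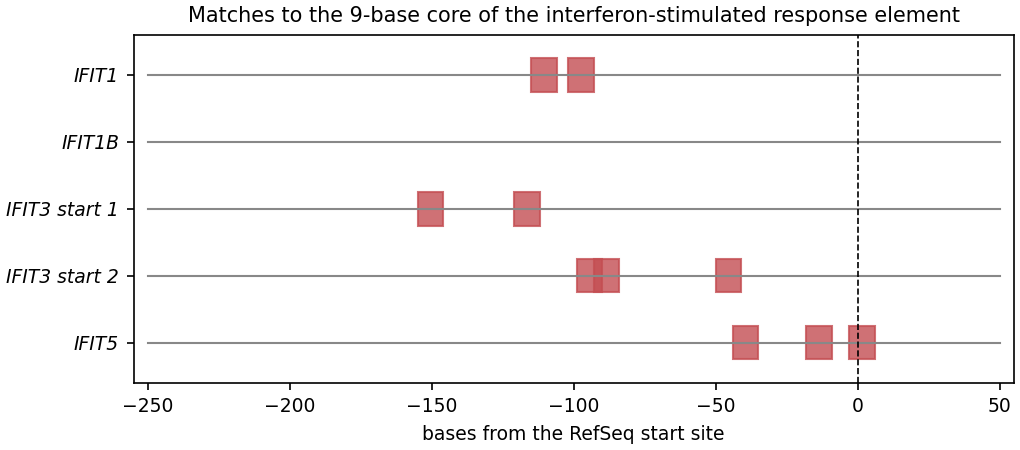
Positions of the matches to GAAANNGAA (red boxes, 9 bases each) in windows around the RefSeq start sites of IFIT1, IFIT1B, IFIT3 (both starts) and IFIT5, with distance from the start site in bases on the x axis and the start as a dashed line. Measured from the RefSeq starts, IFIT5 has its 3 matches nearest to the start, at 44, 18 and 3 bases before it. IFIT1B has none. The GENCODE starts lie 77 bases before the RefSeq start for IFIT1 and 103 and 45 bases before for IFIT3. For IFIT5 the GENCODE start lies 18 bases past it, so the order of distances depends on the starts used.

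The deposited tables give a value per transcript, read here as FPKM, that is, fragments divided by transcript length and by library depth, and transcript values were summed to genes. AURKA was at 124.1 and 99.07 FPKM in control replicates 1 and 2 and at 22.29 and 23.65 FPKM in knockdown cells, 4.86-fold lower. Summed FPKM was 718978 to 761641 per library, 11738 to 12177 genes reached 1 FPKM, and mitochondrial transcripts took 16.0% to 19.0%. Depth is not recorded in the files, and low values gave rough estimates of 17200000, 24000000, 21100000 and 27300000 fragments for control replicates 1 and 2 and knockdown replicates 1 and 2. On that estimate IFIT2, the lowest member in control cells, rested on 449 to 6363 fragments, a counting error of 4.7% to 1.3%, which covers counting alone. Tables with the same replicate number share 1 row order and those with different numbers do not. The labels do not say what a number marks, and a shared step of processing is inferred here from the row order alone.

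The 6 genes fixed as marks of MDA-MB-231 were at 212 to 2068 FPKM in every library. Of 7 breast epithelial and receptor genes that the line is known to hold at low levels, the highest was ERBB2 at 20.2 FPKM. All 10 markers found of immune and stromal cells were under 1 FPKM, with a highest value of 0.464 FPKM and sums of 0.67 and 1.02 FPKM in control cells and 0.77 and 1.20 FPKM in knockdown cells. CD3E of T cells and CLEC4C of plasmacytoid dendritic cells, which are potent makers of interferon, were listed at 0 throughout.

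IFIT1 binds RNA that carries a 5′ triphosphate or a cap without ribose methylation, and it was the most abundant member in 3 of the 4 libraries. Its values were 26.65 and 33.06 FPKM in control replicates 1 and 2 and 60.09 and 83.11 FPKM in knockdown replicates 1 and 2. Both knockdown libraries lay above both controls. The means were 29.85 ± 4.54 and 71.60 ± 16.28 FPKM (SD, n = 2 each), 2.40-fold higher in the knockdown, and the fold was 2.25 within replicate 1 and 2.51 within replicate 2. In bulk RNA, more cells that express a gene and more of its RNA per cell cannot be told apart. In percentiles among the tested genes of a library, IFIT1 stood at 66.6 and 73.6 in control cells and at 86.4 and 90.4 in the knockdown.

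IFIT3 is an adaptor that joins IFIT1 and stabilises its hold on RNA. It was at 17.82 and 28.75 FPKM in control cells and at 57.97 and 100.4 FPKM in knockdown cells. The groups did not overlap, and knockdown replicate 2, at the 92.3 percentile, was the one library in which IFIT3 exceeded IFIT1. The means of 23.29 ± 7.73 and 79.19 ± 30.01 FPKM (SD, n = 2 each) gave a fold of 3.40, with 3.25 within replicate 1 and 3.49 within replicate 2.

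IFIT2 also binds RNA and is known to promote cell death and to pair with IFIT3. It had the lowest control values of the family and the highest fold. It was at 7.47 and 14.69 FPKM in control cells and at 31.81 and 66.73 FPKM in knockdown cells. Every knockdown value exceeded every control value. The means were 11.08 ± 5.11 and 49.27 ± 24.69 FPKM (SD, n = 2 each), 4.45-fold higher, and the folds within replicates 1 and 2 were 4.26 and 4.54. IFIT2 moved from the 28.7 and 50.3 percentile in control cells to the 71.9 and 87.6 percentile in the knockdown.

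IFIT5 binds RNA with a 5′ triphosphate as a single protein and, unlike the others, is not held in their shared complex. It was at 12.53 and 22.19 FPKM in control cells and at 20.73 and 28.24 FPKM in knockdown cells. Here the groups overlapped, since control replicate 2 lay above knockdown replicate 1. The means were 17.36 ± 6.83 and 24.48 ± 5.31 FPKM (SD, n = 2 each), 1.41-fold higher, with 1.65 within replicate 1 and 1.27 within replicate 2. The controls differed from each other by 1.77-fold, more than either of these. IFIT1B, a paralog between IFIT3 and IFIT1, was listed at 0.0439 to 0.115 FPKM, an estimated 2 to 6 fragments, and did not pass the filter.

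**Figure D2:**
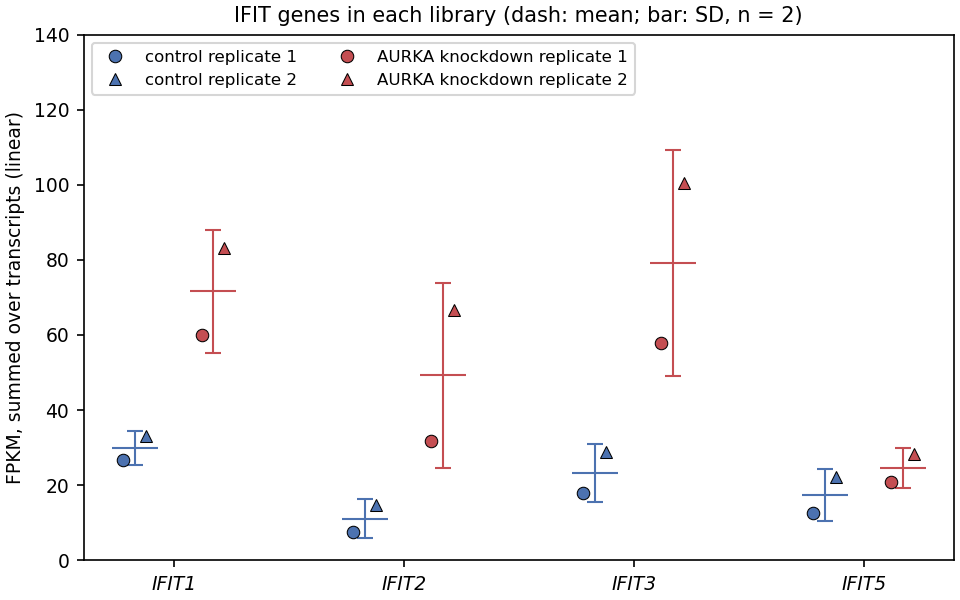
FPKM of the 4 IFIT genes in each library on a linear axis, with circles for replicate 1, triangles for replicate 2, a dash for each group mean and bars for the SD (n = 2). For IFIT1, IFIT2 and IFIT3 both knockdown libraries (red) sit above both controls (blue), while for IFIT5 control replicate 2, at 22.19 FPKM, sits above knockdown replicate 1, at 20.73 FPKM.

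On the scale of log2(FPKM + 1), which understates changes of low genes, the difference between knockdown and control was 2.03 for IFIT2, 1.71 for IFIT3, 1.22 for IFIT1 and 0.51 for IFIT5. The same order held within each replicate number: 1.95, 1.65, 1.14 and 0.68 in replicate 1 and 2.11, 1.77, 1.30 and 0.33 in replicate 2. Of all tested genes, 19.4% had both knockdown libraries above both controls, as 3 of the 4 members did. limma's moderated test, with Benjamini-Hochberg adjustment over all 12136 genes and a threshold of 0.05, called 0 genes (0%) without the replicate number as a term, where 773 genes had an unadjusted p under 0.05. With the replicate number in the model it called 417 genes (3.44%), of which 186 were higher (1.53%) and 231 lower (1.90%) in the knockdown. IFIT1, IFIT2 and IFIT3 are among the 186 and IFIT5 is not, and since the genes were chosen on this contrast nothing is read from that count.

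Within each group the members differed between replicates in 1 direction. All 4 were higher in replicate 2 than in replicate 1, in control cells (1.24-fold for IFIT1, 1.97-fold for IFIT2, 1.61-fold for IFIT3 and 1.77-fold for IFIT5) and in the knockdown (1.38-, 2.10-, 1.73- and 1.36-fold). Among all 12136 tested genes 30.8% were higher in replicate 2 in both groups, and 5507 genes were lower in replicate 2 in both. The median gene was lower in replicate 2 by 0.07 on the log2 scale in control cells and 0.04 in the knockdown. The transcription factors of the pathway went the other way: all 8 tested, such as IRF3, IRF7 and IRF9, were lower in replicate 2 in both groups. IRF9 was at 21.3 and 13.2 FPKM in control cells and 24.0 and 16.1 FPKM in knockdown cells. Of 55 tested interferon-stimulated genes outside the family 15 were higher and 27 lower in replicate 2 in both groups. The 15 are 27.3% of the list, near the 30.8% of all tested genes. Differences of culture and of processing between the replicate numbers cannot be told apart.

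The makeup of the family differed between the groups. The 4 members summed to 64.47 and 98.69 FPKM in control cells and to 170.6 and 278.5 FPKM in knockdown cells, 2.65- and 2.82-fold more within replicates 1 and 2. IFIT2 took 11.6% and 14.9% of the sum in control cells and 18.6% and 24.0% in the knockdown. IFIT5 took 19.4% and 22.5% in control cells and 12.1% and 10.1% in the knockdown. IFIT1 and IFIT3 changed less in share: IFIT1 took 41.3% and 33.5% and then 35.2% and 29.8%, with overlap, and IFIT3 took 27.6% and 29.1% and then 34.0% and 36.1%.

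Ratios of 2 members within a library show the same. IFIT2 stood at 0.60 and 0.66 of IFIT5 in control cells and at 1.53 and 2.36 of it in the knockdown, so their order reversed. For every library the order of levels can be read from these values: IFIT1, IFIT3, IFIT5, IFIT2 in both controls, IFIT1, IFIT3, IFIT2, IFIT5 in knockdown replicate 1, and IFIT3, IFIT1, IFIT2, IFIT5 in knockdown replicate 2. IFIT3 to IFIT1 was 0.67 and 0.87 in control cells and 0.96 and 1.21 in the knockdown, and IFIT3 to IFIT2, the pair of closest pattern, ran from 2.39 and 1.96 down to 1.82 and 1.505. With SDs of 4.54 and 7.73 FPKM, the control means of neighbouring IFIT1 and IFIT3 lie within their spread of each other, as do those of IFIT3 and IFIT5 and of IFIT5 and IFIT2. The knockdown means of IFIT3 and IFIT1, 79.19 and 71.60 FPKM, also differ by less than their SDs. These SDs are spreads between libraries, over which the members moved together, and not spreads of a difference within a library. Within each control library the order of the members was the same.

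At the level of transcripts, IFIT1 came almost wholly from ENST00000371804 (1880 bases, 2 exons), which held 97.7% to 98.6% of the gene's value. The longer ENST00000546318 (4613 bases, 3 exons) was at 0.58 and 0.55 FPKM in control cells and 0.86 and 1.93 FPKM in knockdown cells. IFIT2 has 1 transcript in the tables, ENST00000371826 (3489 bases, 2 exons).

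The IFIT3 transcripts begin inside the 2 windows printed above, in GENCODE 29 at 103 bases before the first RefSeq start and 45 bases before the second, so the distances of the matches given there are from the RefSeq starts. They share a last exon of 2311 bases, and only first exons of 185 and 144 bases tell them apart. ENST00000371818, from the first start, was at 14.86 and 20.90 FPKM in control cells and 47.48 and 81.06 FPKM in knockdown cells. ENST00000371811, from the second start, was at 2.96 and 7.85 FPKM in control cells and 10.49 and 19.35 FPKM in knockdown cells. Both transcripts were higher in both knockdown libraries. The second start took 16.6% and 27.3% of IFIT3 in control cells and 18.1% and 19.3% in the knockdown, so the shares overlapped, and the start with 3 matches to the response element was the lesser one in every library.

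IFIT5 was split almost evenly between ENST00000371795 (6.60 and 10.60 FPKM in control cells, 10.38 and 14.13 FPKM in knockdown cells) and ENST00000416601 (5.93 and 11.60 FPKM, then 10.34 and 14.11 FPKM). In GENCODE 29, the annotation used for lengths and exons, 6 of the 7 member transcripts were found, and ENST00000416601 was not.

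Near-identical sequence could mix the counts of family members, so shared words of 50 bases were counted. IFIT1 shared 2.08% of the words of its main transcript with other genes, chiefly IFIT1B and the pseudogene IFIT6P. IFIT2 and the IFIT5 transcript ENST00000371795 shared 0, and the 2.66% and 2.62% shared by the IFIT3 transcripts lay in many unrelated genes. The other IFIT5 transcript, ENST00000416601, was not found in the annotation and was not checked. It held 47.3% to 52.3% of the IFIT5 value. By exons, 0 bases of the 6 matched transcripts overlapped a deposited transcript of another gene.

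The genes lie side by side on chromosome 10. The files give IFIT1, IFIT2, IFIT3, IFIT1B and LIPA, which encodes lysosomal acid lipase, a single locus at 90973326 to 91174314, and IFIT5 one at 91174343 to 91180758 (GRCh37). The shared locus is 200989 bases long, as is the span of 1 LIPA transcript on the opposite strand, ENST00000371837, which was listed at 0 in all libraries. The member genes are on the plus strand. The labels give no strand setting for the libraries, so reads from the 2 strands cannot be told apart where transcripts overlap.

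Within 1 Mb of the members lie 20 listed genes, of which 12 were tested, 8 of them outside the family. SLC16A12, a monocarboxylate transporter, was at 0.94 and 1.07 FPKM in control cells and 5.49 and 3.53 FPKM in knockdown cells, with no overlap. Its transcript ENST00000475682 was at 0.76 and 0.93 FPKM and then 4.50 and 2.58 FPKM. ENST00000371790 was uneven, at 0.17 and 0.14 FPKM and then 0.99 and 5.35e-05 FPKM. The remaining transcript, ENST00000341233, had the reverse pattern in the knockdown, at 0.0103 and 0.00638 FPKM and then 0.00481 and 0.945 FPKM. The locus of SLC16A12 begins 9293 bases past IFIT5, but the gene is on the minus strand, so its 3′ end is the near one. Its log2 difference was 1.43, and limma's adjusted p was 0.0176 with the replicate number in the model and 0.399 without it. LIPA was at 24.6 and 24.5 FPKM in control cells and 34.9 and 30.3 FPKM in knockdown cells (log2 difference 0.39, adjusted p in limma 0.073 with the number in the model and 0.674 without). The LIPA transcript whose start lies 1733 bases past the end of IFIT3, ENST00000282673, was at 1.25 and 1.25 FPKM and then 3.94 and 2.69 FPKM, 3.16- and 2.15-fold within the replicates. The most abundant LIPA transcript, ENST00000336233, was 1.30- and 1.07-fold higher. ENST00000456827 was at 5.54 and 4.72 FPKM and then 8.93 and 7.82 FPKM, 1.61- and 1.66-fold higher. On chromosome 10 both of these start at lower positions than IFIT2. ENST00000428800 was at 0.88 and 0.66 FPKM and then 0 and 0.68 FPKM.

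The other 6 tested neighbours did not pass in either fit. FAS, the death receptor, was at 3.82 and 3.65 against 4.07 and 3.46 FPKM, and STAMBPL1, a deubiquitinase, at 19.8 and 21.2 against 21.4 and 23.6 FPKM. KIF20B, a mitotic kinesin, was at 56.7 and 47.1 against 45.5 and 48.2 FPKM. ACTA2, smooth muscle actin, was at 2.73 and 2.22 against 1.47 and 1.45 FPKM, the lowest log2 difference of the region at -0.50. CH25H, which makes 25-hydroxycholesterol and is itself induced by interferon, was under 0.3 FPKM throughout and was not tested.

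**Figure D3:**
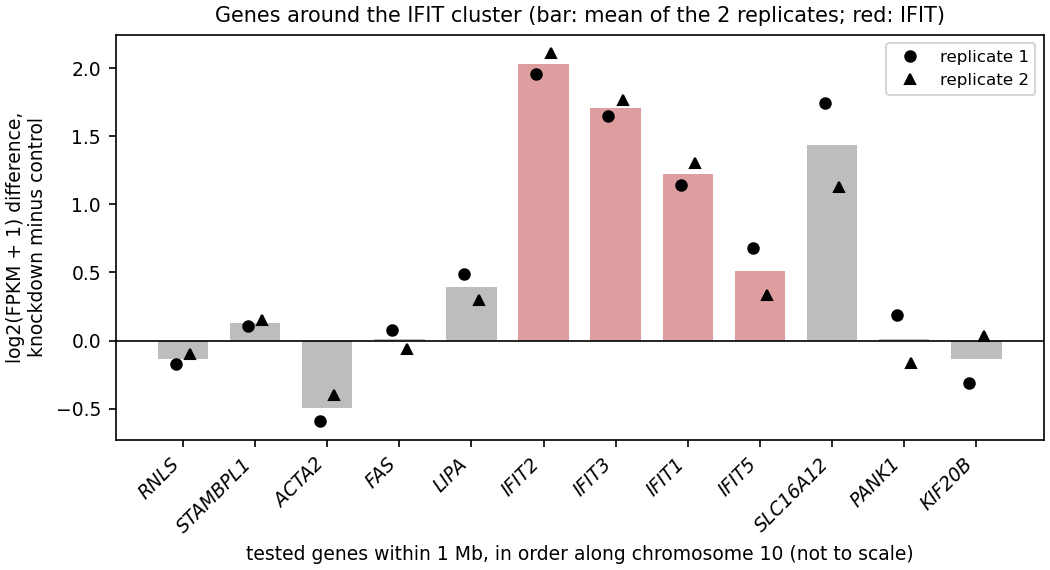
Difference between knockdown and control in log2(FPKM + 1) for the 12 tested genes within 1 Mb, in their order along chromosome 10, with bars for the mean of the 2 replicates, circles for replicate 1 and triangles for replicate 2. The IFIT genes (red) stand between LIPA, at 0.39, and SLC16A12, at 1.43, and the genes farther out lie between -0.50 and 0.13.

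The genes whose pattern over the 4 libraries was most like a member's were found by the distance between log2(FPKM + 1) values, each centred on its own mean, where 0 is an identical pattern. For IFIT1 these were OASL (distance 0.14), an antiviral protein related to the oligoadenylate synthetases, then TCN1, EVI2B, IGFBP1 and NUPR1 (0.17 to 0.26). For IFIT2 the nearest was IFIT3 (0.41), with OLFML3, OASL, IFIT1 and AL590560.1 following at 0.95 to 1.01. IFIT3 had IFIT2, OLFML3 (0.57), IFIT1 (0.59), OASL (0.59) and IGFBP1 (0.70).

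IFIT5 was nearest to TOE1, ATF5, KRCC1, TADA2A and PDF, at 0.05 to 0.07, none of which is in the interferon lists used here. ATF5 is a stress-responsive transcription factor, and TADA2A a part of histone acetyltransferase complexes. Within a distance of 0.5 lay 19 of the other 12135 genes for IFIT1, 1 for IFIT2, 1 for IFIT3 and 681 for IFIT5. The likeness rests on 4 libraries and on the same contrast that chose the members.

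The rest of the pathway was read in the order in which it acts. The ligands were near 0: all 21 interferon genes searched were under 1 FPKM in every library, 15 were listed at 0 in all of them, and the highest value was 0.24 FPKM, for IFNK, so 0 could be tested. Of 9 receptor and Janus kinase genes 0 passed in either fit (3.44% of all tested genes did with the replicate number in the model), with a median log2 difference of 0.01, against 0.01 over all genes tested. IFNAR2, a chain of the type I receptor, was at 16.4 and 17.3 FPKM in control cells and 13.8 and 12.3 FPKM in knockdown cells, and JAK1 at 31.2 and 28.5 against 29.2 and 30.9 FPKM. Of the 8 transcription factors 0 passed (median -0.04): STAT2 was at 21.8 and 15.3 against 20.9 and 17.7 FPKM, and IRF3 at 48.1 and 38.3 against 48.4 and 35.7 FPKM. For each of the 8 the groups overlapped. Among all tested genes the groups did not overlap in 35.9%.

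Of 12 tested sensors and adaptors 1 rose with the replicate number in the model (8.33%, against 1.53% of all tested genes). That gene was DDX58, which encodes the RNA sensor RIG-I. It was at 16.7 and 14.9 FPKM in control cells and 22.7 and 29.1 FPKM in knockdown cells (adjusted p in limma 0.049 with the number in the model). IFIH1, which encodes the sensor MDA5, was at 8.42 and 4.98 against 9.82 and 8.20 FPKM, and MAVS, their adaptor, at 24.5 and 28.9 against 26.5 and 28.7 FPKM. This list had a median of 0.09. Of 7 tested brakes on the pathway 1 rose with the replicate number in the model (14.3%, against 1.53% of all tested genes). That gene was ISG15, which stabilises USP18. USP18 itself, which blocks the type I receptor, was at 4.58 and 4.32 against 6.02 and 4.80 FPKM. The brakes had a median of -0.06.

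Among interferon-stimulated genes outside the family, 55 of 64 were tested and 46 had a difference above 0, with a median of 0.25 on the log2 scale (0.23 in replicate 1 and 0.27 in replicate 2). All tested genes had a median of 0.01, and 52.3% of them lay above 0. With the replicate number in the model 8 rose (14.5%, against 1.53% of all tested genes) and 1 fell (1.90% of all tested genes), with 46 not passing. The groups did not overlap, with the knockdown higher, in 28 of the 55, or 50.9%, against 19.4% of all tested genes. The differences of IFIT3 and IFIT2, 1.71 and 2.03, lie above the highest of this list, OASL at 1.31. IFIT1, at 1.22, lies below OASL and above the rest. Since the members were chosen on this contrast, nothing is read from their rank against the list.

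The 8 that rose were OASL, ISG15, ISG20, IFI27, DDX58, DDX60, NMI and ZC3HAV1. Their adjusted p was 0.0028 to 0.049 in limma with the number in the model, and 0 of them passed without it. DDX58 and ISG15 are the same genes counted above for the sensors and the brakes. Over the union of all the lists, 8 of 101 tested genes rose (7.92%, against 1.53% of all tested genes). OASL was at 10.5 and 12.1 FPKM in control cells and 25.9 and 33.7 FPKM in knockdown cells. ISG15, a ubiquitin-like protein, was at 172.5 and 120.8 FPKM and then 258.5 and 209.8 FPKM, and ZC3HAV1, a zinc finger protein that directs viral RNA to decay, at 19.4 and 22.7 FPKM and then 32.1 and 40.4 FPKM. IFITM2, a membrane protein that blocks viral entry, fell with the replicate number in the model, from 110.3 and 73.2 to 76.7 and 48.2 FPKM, with groups that overlap (adjusted p 0.0195). Well-known members that did not pass were MX1 (5.43 and 5.89 against 6.65 and 7.20 FPKM), IFI6 (18.3 and 11.1 against 22.1 and 14.2 FPKM) and IFITM3 (247 and 197 against 253 and 194 FPKM).

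**Figure D4:**
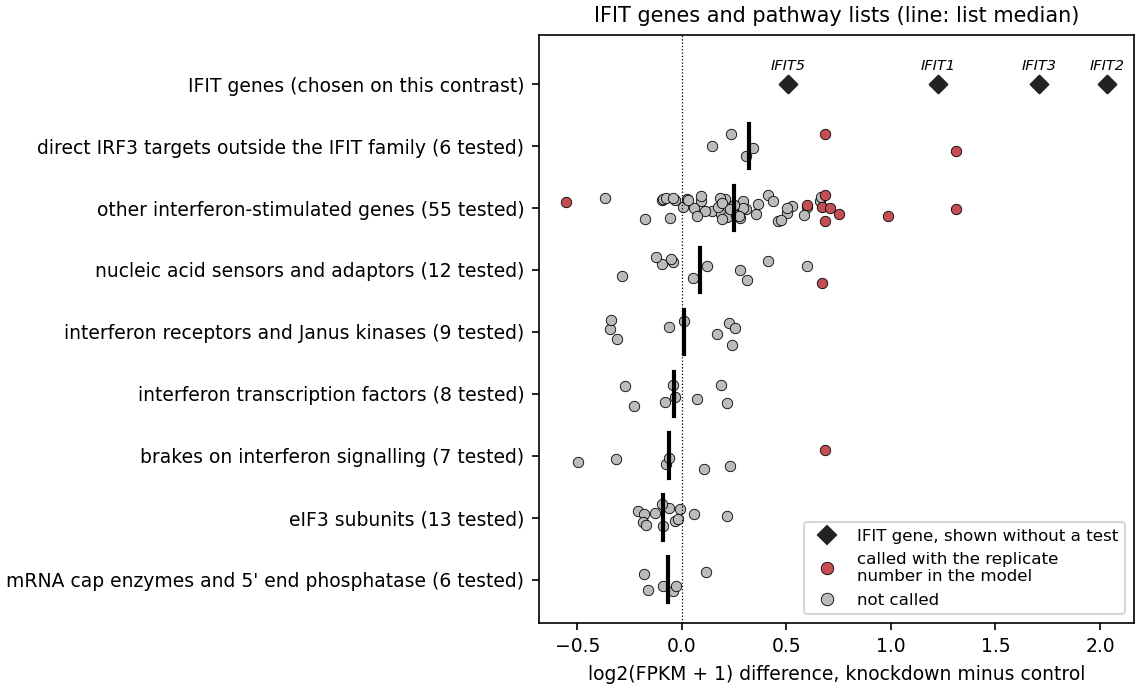
Difference between knockdown and control in log2(FPKM + 1) for each tested gene (points) of the pathway lists, with a vertical line at each list's median. Red points passed limma with the replicate number in the model, grey points did not, and diamonds are the IFIT genes, shown without a test. The lines sit at 0.32 for IRF3 targets and 0.25 for other interferon-stimulated genes and between -0.09 and 0.09 for the other lists.

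Genes known as direct IRF3 targets, 6 of 10 tested and partly the same genes, were all above 0 with a median of 0.32. Of all tested genes 52.3% lay above 0. OASL and ISG15 rose with the replicate number in the model (33.3% of the 6, against 1.53% of all tested genes). PMAIP1, a cell death factor, was at 32.0 and 33.9 against 34.4 and 51.2 FPKM without passing. The classical targets CXCL10, CXCL11 and RSAD2 did not reach the filter.

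The promoter search was extended to the tested genes with a RefSeq window, 9750 of 12136 (80.3%), and the members were left out. The median log2 difference was 0.01 in 8873 genes with 0 matches to the response element, 0.02 in 792 with 1 match and 0.03 in 71 with 2. In 11 genes with at least 3 matches, as in IFIT5 and the second IFIT3 start, it was 0.29, with 10 of the 11 above 0 and 2 that rose with the replicate number in the model (18.2%). That share was 1.36% of the genes with 0 matches, 1.64% of those with 1 and 2.82% of those with 2. Those 11 hold several genes of the interferon lists (HERC5, IFI6, IFIH1 and ISG15), so this is the same observation in part. Of the interferon-stimulated genes that rose, 5 of 7 with a window held a match, and of those that did not pass, 24 of 36 did.

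The partners of the IFIT proteins had small differences. Of 13 eIF3 subunit genes 0 passed in either fit, where 3.44% of all tested genes did with the replicate number in the model. The median was -0.09, and 2 of the 13 had a difference above 0, against 52.3% of all tested genes. EIF3E and EIF3C, the subunits known to bind IFIT proteins, were at 337 and 371 against 337 and 362 FPKM and at 147 and 202 against 137 and 163 FPKM. The enzymes that cap mRNA, methylate the cap or trim triphosphate ends decide which RNA an IFIT protein can bind. Their list had 6 genes tested, 0 passing and a median of -0.07. Of these 6, 1 had a difference above 0. CMTR1, which adds the first ribose methyl group, was at 16.4 and 15.3 against 15.4 and 14.2 FPKM.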

How the data were processed

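RNA sequencing of 4 MDA-MB-231 libraries was analysed. The authors deposited 1 table of transcript values per library, without a named unit, read here as FPKM from the values. Per the submitters' processing notes, bcl2fastq 2.19, HTSeq 0.8.0 and hg38 were used. The program behind the values was not given in the sources used here, and the loci in the tables fit GRCh37, in which they are printed, 1-based. The deposited FPKM values were summed by gene ID and tested as log2(FPKM + 1) with limma 3.58.1 (R 4.3.3), trend on, two-sided, for genes that reached 1 FPKM in 2 or more libraries. P-values measure the spread between these samples, which may be technical. Alternatives were another pseudocount, other filters and scalings, the block and leaving out each library. A further fit had the replicate number in the model. The labels do not say what it marks; tables with the same number share a row order. The members and gene lists were chosen with earlier results of these data known. Genes named are the IFIT genes, AURKA, neighbours within 1 Mb, the 5 nearest patterns per member, and from each list the genes past the threshold plus up to 4 of the most abundant; other names were chosen after their values were seen. Sequences come from RefSeq (GRCh38.p14), exons from GENCODE 29. The fit was also run on data simulated with a replicate effect added to each gene. That run cannot show whether the replicate number should be a term for these 4 libraries.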

Additional observations from a re-analysis of the deposited data

How the results depend on the processing

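The labels do not say that the replicate number pairs libraries, and only 2 pairs exist. Across 12136 genes, same-numbered libraries deviated together from their group means (r = 0.645). With the replicate block limma called 417 genes and 9 genes of the lists, and with the block and median-of-ratios scaling 852 and 14, all 417 among the 852; IFIT5 then passed too. Without the block it called 0 genes, 1 with a filter at 5 FPKM, 2 with upper-quartile scaling, 2 when each library was scaled to the same total, and 6 to 14 when 1 library was left out (14 without control replicate 2). Leaving out each library in turn gave log2 differences of 0.99 to 1.45 for IFIT1, 1.51 to 2.56 for IFIT2, 1.32 to 2.10 for IFIT3 and 0.12 to 0.90 for IFIT5. The median of the other interferon-stimulated genes was 0.25, and became 0.29 with a pseudocount of 0.1, 0.22 with no filter on low values and 0.16 to 0.38 without single libraries, lowest without control replicate 2. The share of the second IFIT3 start, which differed by -3.27 points (knockdown minus control), ran from -8.63 to 2.09 points. The cause of these changes was not tested. Scaling moved the median gene by under 0.03.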
